A study of Drosophila melanogaster with 8 samples.

Results

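Open chromatin of wing imaginal discs was compared with that of salivary glands in wild type (WT) Drosophila melanogaster larvae. The comparison covers every region for which the comparison tables give values: 2751 called higher in wing, 1647 called higher in gland and 8610 called in neither direction. The libraries were taken by their tissue labels, 2 of WT wing and 2 of WT salivary gland, so 4 of the 8 libraries in the series entered the comparison directly. The merged peak lists of both tissues, with 29283 peaks in wing and 16840 in gland, were used beside the table.

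The assay was FAIRE-seq, in which crosslinked chromatin is extracted with phenol and DNA that is poor in nucleosomes is recovered and sequenced. All animals were female wandering larvae raised at 25C and labelled -6 h relative to puparium formation (APF), and each library holds at least 40 dissected tissues. Both tissues, and a set of leg discs, carry the wild type genotype +/+; +/+; +/+. A further group of wing discs has a yw background with Vg-GAL4, UAS-Flp and the Tub>>CD2>>GAL4 cassette, and UAS-GFP over UAS-EcR-RNAi[104], so an RNAi against the ecdysone receptor is driven through a wing enhancer. In the peak lists, gland peaks are named with the prefix EcRmimic and wing peaks with OR, although both are labelled wild type, so the stock may differ along with the tissue. The gland list also carries a fragment size tag that the wing list lacks, so the selection of fragment sizes may differ between the peak lists, and its part in their peak numbers, widths and overlaps was not tested. The labels do not tie the libraries to separate crosses or days, so an adjusted p-value reflects only the spread among the libraries sequenced, which can be technical.

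The wing disc is a sac of diploid, dividing epithelial cells that forms the wing and the back of the thorax. It is patterned by selector genes such as vg and ap and by the Hedgehog, Dpp, Wingless, EGFR and Notch signalling pathways, and myoblasts and tracheal cells are attached to it. The larval salivary gland is a tube of non-dividing secretory cells with giant polytene chromosomes. It makes the mucin-like glue proteins (Sgs genes) under the control of fork head (fkh), CrebA and the moulting hormone ecdysone. In polytene nuclei some DNA, heterochromatin above all, is known to be copied less often than the rest. DNA copy number was not measured here, so at a region lower in gland, fewer copies and less open chromatin cannot be told apart, and in tissue pieces a smaller share of cells with an open site cannot be told from less opening per cell.

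More regions were higher in wing than in gland, and they differed in kind. Of all regions in the authors' deposited table, 21.1% (2751) passed toward wing and 12.7% (1647) toward gland, with DESeq2's adjusted p under 0.05 and a log2 fold of 1 or more in size. Centred on the median of all regions (0.18), the split of calls was 48.8% toward wing in place of 62.6%, and centred on the regions near gene ends (-0.36) it was 82.7%. In the authors' deposited table the median log2 fold was 1.44 for the regions higher in wing, which had a median width of 648 bp, and -1.42 for those higher in gland, with 271 bp. The medians of their mean normalized counts were 182.4 and 44.4 in the authors' deposited table. Positive folds are higher in wing throughout. Regions higher in gland are thus narrower and have lower mean counts. Their median standard error (SE) was 0.32, against 0.20 for those higher in wing, per the authors' deposited table. The mean count is taken over all 8 libraries, of which only 2 are gland, so it is lowered for a region open in gland alone.

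The table gives no value per library. A level for each group was therefore implied from the mean normalized count over all 8 libraries and the folds of the authors' deposited tables. These implied levels are in normalized counts per region, are not divided by region length, and carry no error beyond the SE of the fold. Across the regions higher in wing the median implied level was 230.8 in wing and 80.3 in gland, and across those higher in gland 28.9 in wing and 84.6 in gland. These medians describe classes that were picked by the fold and differ in width. The plot of implied levels shows both classes on either side of the diagonal, with a group of regions at the lower right that are near 0 in gland.

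**Figure D1:**
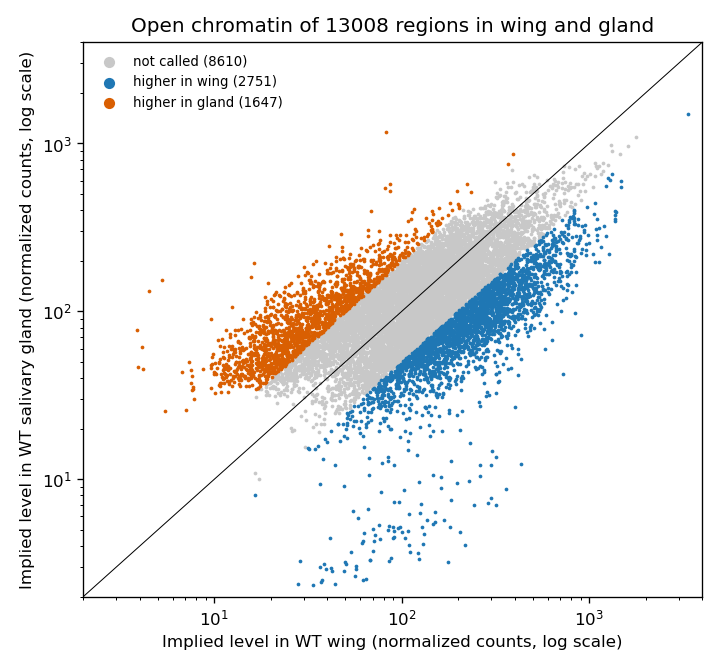
Implied level of each region in WT wing (horizontal) and WT salivary gland (vertical), in normalized counts on log scales; each point is a region, coloured by call, and the line marks equal levels. The 2751 regions higher in wing reach larger levels than the 1647 higher in gland, which lie mostly at low wing levels.

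Markers of each tissue were more open in that tissue, but less uniformly for gland. The authors' deposited table called 39 of 63 regions at 10 wing disc marker genes higher in wing and 0 higher in gland. The 24 regions not called had log2 folds of -0.08 to 0.99 in the authors' deposited table. For the salivary gland markers it called 8 of 19 regions higher in gland and 1 higher in wing, and only 5 of the 11 marker genes were nearest to any region. The shares in the tissue of the markers were 61.9% for wing and 42.1% for gland, against 21.1% and 12.7% of all regions.

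Genes that pattern the wing were mostly called in favour of wing. The authors' deposited table called 125 of 194 regions of the wing pattern list higher in wing (64.4%, against 21.1% of all regions) and 2 higher in gland, with a median log2 fold of 1.23 against 0.18 for all regions. Bifid (bi, also known as optomotor-blind), a T-box factor that acts downstream of Dpp in the centre of the wing, had 20 of 23 regions called higher in wing per the authors' deposited table. Its widest called region, inside the gene at X 4448304 to 4450534, had implied levels of 966 in WT wing, 1229 in leg, 671 in EcR-RNAi wing and 231 in gland. That is a log2 fold of 2.06 (SE 0.15, adjusted p = 3.65e-39, DESeq2) in the authors' deposited table, and the 3 disc groups lie well above gland. The smallest fold at bi was 0.31, so no bi region was higher in gland per the authors' deposited table.

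The wing selector vestigial (vg), whose product works with Scalloped to specify wing cells, had 4 of 8 regions called in the authors' deposited table. Downstream of the gene, at 2R 12903856 to 12904899, the implied levels were 465 in WT wing, 392 in leg, 402 in EcR-RNAi wing and 137 in gland. A region inside vg at 2R 12888320 to 12889878 differed from that pattern, with implied levels of 404 in WT wing and 605 in EcR-RNAi wing but 158 in leg and 156 in gland. Here the authors' deposited tables gave a log2 fold of 1.37 (SE 0.18) for wing over gland and 0.02 (SE 0.19) for leg over gland. The EcR-RNAi wing group carries Vg-GAL4, and whether reads from that transgene add to its level at vg was not tested. The other 4 vg regions had log2 folds of 0.90 to 0.97, just under the threshold of 1, in the authors' deposited table. The partner gene sd had a single region, and its log2 fold was -0.02 (SE 0.22) in the authors' deposited table.

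Homothorax (hth), a homeodomain gene active in the hinge and notum, carried 29 calls among 31 regions, the most of any gene with regions inside it, in the authors' deposited table. An hth region at 3R 10588319 to 10589641 had implied levels of 510 in WT wing, 510 in EcR-RNAi wing, 322 in leg and 79.2 in gland. Its log2 fold was 2.69 (SE 0.16, adjusted p = 9.16e-63, DESeq2) in the authors' deposited table. The dorsal selector apterous (ap) had 2 of 5 regions called, the pouch gene nubbin (nub) 2 of 8, and caupolican (caup), of the Iroquois complex, 10 of 12 in the authors' deposited table. The T-box genes Doc1, Doc2 and Doc3 had 5 of 9 called in the authors' deposited table. The exceptions lay at eyg, which acts in the eye and notum (-1.54, SE 0.24), and tup, a notum gene (-1.71, SE 0.40). Each had 1 region higher in gland per the authors' deposited table. The eyg gene is also on the list of gland regulators, where this region is counted again.

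Genes of the appendage axes and the Hox clusters followed the same direction. The authors' deposited table called 96 of 204 appendage axis regions and 34 of 64 Hox regions higher in wing, against 6 and 1 higher in gland. These wing shares are 47.1% and 53.1%, against 21.1% of all regions. The gland shares are 2.94% and 1.56%, against 12.7%. Among the appendage calls toward wing, 29 at hth and 2 at rn are also counted in the wing pattern list. Antennapedia (Antp), the Hox gene of the thorax, had 12 of 16 called, and Ubx, which sets haltere identity, 7 of 20 in the authors' deposited table. Hox genes that are not known for a role in the wing disc were also higher there. At abd-A, which acts in the abdomen, all 3 regions were called, and the one nearest the gene end, at 3R 16829996 to 16830399, had implied levels of 209 in WT wing, 221 in leg, 132 in EcR-RNAi wing and 25.3 in gland. Its log2 fold was 3.05 (SE 0.24) in the authors' deposited table, above the 2.73 (SE 0.18) of the first Abd-B region and the 2.51 (SE 0.19) of the first Antp region. The only Hox region higher in gland lay inside Scr, the Hox gene that starts salivary gland development in the embryo. At this Scr region, 3R 6847906 to 6848040, the implied levels were 34.3 in gland and 7.71 in wing, with a log2 fold of -2.15 (SE 0.44) in the authors' deposited table. Its mean count was low, 16.2. Of the 7 Scr regions 1 was higher in wing, and their median log2 fold was 0.57, in the authors' deposited table. In the appendage list bab2, a gene of distal leg segments, stood out with 4 of 10 regions higher in gland and 0 higher in wing per the authors' deposited table.

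Calls at signalling genes were mostly toward wing, though most of their regions were not called. The authors' deposited table called toward wing 36 of 88 Hedgehog and Dpp regions, 31 of 91 Wnt regions and 36 of 107 EGFR and JAK/STAT regions. These shares are 40.9%, 34.1% and 33.6%, against 21.1% of all regions. Higher in gland were 1, 2 and 6 regions of these lists (1.14%, 2.2% and 5.61%, against 12.7%) in the authors' deposited table. Among ligands, a dpp region at 2L 2454377 to 2455242 had implied levels of 510 in WT wing and 129 in gland, and a wg region at 2L 7319261 to 7320686 had 645 and 171. Their log2 folds were 1.99 (SE 0.19) and 1.92 (SE 0.15) in the authors' deposited table. Among receptors, Egfr had a region with a log2 fold of 2.09 (SE 0.17), and among feedback genes kek1, an inhibitor of that receptor, had 3.33 (SE 0.21) in the authors' deposited table. Some signalling genes held both kinds of region. Dad, an inhibitor of the Dpp pathway, had a region higher in wing (2.14, SE 0.18) and another inside the same gene that was higher in gland (-2.26, SE 0.38) in the authors' deposited table. For fz2, a Wingless receptor, 3 of 18 regions were higher in wing and 2 higher in gland per the authors' deposited table. In the JAK/STAT pathway the receptor gene dome had 1 region higher in gland (-1.19, SE 0.26), and the factor gene Stat92E had 1 higher in wing (1.19, SE 0.16) and 2 higher in gland (-1.56, SE 0.31, and -1.33, SE 0.29) in the authors' deposited table.

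The Notch pathway was open in wing at its receptor and ligands and at its target complex. The receptor gene N had 8 of 11 regions called higher in wing, the ligand Delta 8 of 10 and the ligand Ser 7 of 13, and none of these 3 genes had a region higher in gland per the authors' deposited table. A Ser region at 3R 27185613 to 27186508 had implied levels of 494 in WT wing, 550 in leg, 371 in EcR-RNAi wing and 92.6 in gland. In the E(spl) and Bearded families, whose genes respond directly to Notch, 12 of 18 regions were higher in wing and 0 higher in gland per the authors' deposited table. That wing share is 66.7%, against 21.1% of all regions. The region of E(spl)mbeta-HLH with the largest fold, at 3R 26002157 to 26003711, had implied levels of 1069 in WT wing, 1243 in leg, 952 in EcR-RNAi wing and 198 in gland. By contrast, ct, a Notch target at the wing margin, had 1 region higher in wing and 3 higher in gland of 9 per the authors' deposited table. The DNA-binding factor of the pathway, Su(H), and its antagonist H had 1 region each and no call in the authors' deposited table.

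Adhesion, cuticle and cell death genes also had more calls toward wing. The authors' deposited table called 45 of 116 adhesion and planar polarity regions higher in wing and 7 higher in gland. These shares are 38.8% and 6.03%, against 21.1% and 12.7% of all regions. The cadherin gene CadN had 7 of 7 regions called, and the first of them, at 2L 17749673 to 17750310, had implied levels of 261 in WT wing, 290 in leg, 191 in EcR-RNAi wing and 12.2 in gland. This is a log2 fold of 4.42 (SE 0.25) in the authors' deposited table. The adhesion gene ed had 2 regions higher in wing and 4 higher in gland of 13 per the authors' deposited table. For cuticle and chitin genes the counts were 25 and 1 of 55 (45.5% and 1.82%), led by the chitinase Cht6 (2.32, SE 0.20) in the authors' deposited table. For cell death genes they were 12 (48%) and 0 of 25 in the authors' deposited table. All 4 regions of the death inducer rpr and 5 of 9 of hid were called. Both tissues differ in their cell cycles, the disc dividing and the gland endocycling. The authors' deposited table called 12 of 39 endocycle regions higher in wing (30.8%) and 2 higher in gland (5.13%), among them 7 and 1 of 18 at E2f1. In the mitotic list 1 of 15 was higher in each tissue, at stg (1.89, SE 0.14), which drives entry into mitosis, and at pbl (-1.59, SE 0.42) in the authors' deposited table.

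**Figure D2:**
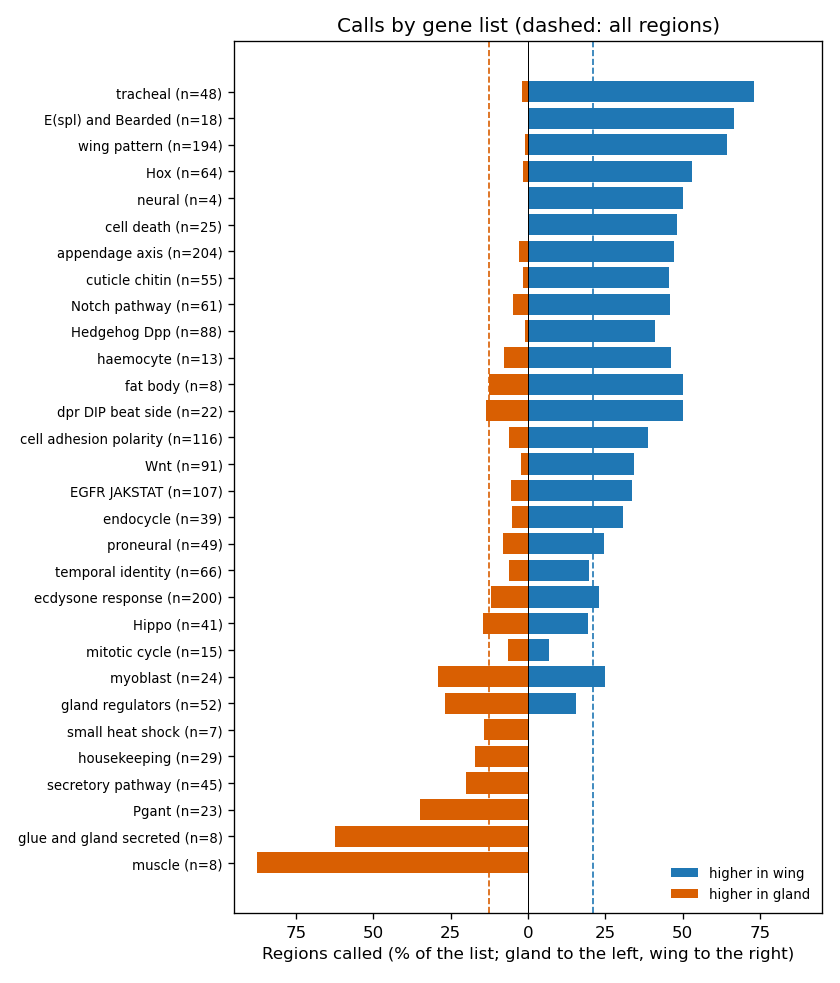
Share of the regions of each gene list that were called higher in wing (blue, to the right) or higher in gland (orange, to the left), in percent of the list's regions, with the number of regions in brackets; dashed lines mark 21.1% and 12.7%, the shares over all regions. The tracheal, E(spl) and wing pattern lists reach farthest to the right, and the muscle and glue lists, of 8 regions each, farthest to the left.

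The gene lists can be read against both dashed lines in the plot of list shares. The wing pattern, appendage, Hox, Hedgehog and Dpp, Wnt, EGFR and JAK/STAT, and Notch lists lie beyond the wing share and short of the gland share, and the lists of gland function lie the other way. The Hippo list, of a pathway that limits growth, lies near both lines, with 8 of 41 regions higher in wing (19.5%) and 6 higher in gland (14.6%) per the authors' deposited table. Its gland calls were all 3 regions of sav, 2 of 8 at kibra and 1 of 2 at hpo, and its wing calls lay at Diap1, ex, dachs and wts in the authors' deposited table. Several list counts depended on where the folds are centred. Centred on the regions near gene ends, wing calls were 56 in place of 36 for Hedgehog and Dpp, 53 in place of 31 for Wnt, 59 in place of 36 for EGFR and JAK/STAT and 69 in place of 45 for adhesion. With the same centring, gland calls were 2 in place of 9 for secretory genes, 5 in place of 8 for Pgant genes, 2 in place of 5 for housekeeping genes, 3 in place of 6 for Hippo and 11 in place of 24 for ecdysone response genes, and gland regulators had 13 calls in each direction. Centred on the median of all regions, wing calls were 25 in place of 39 for the wing disc markers and 5 in place of 12 for cell death genes, and gland calls 14 in place of 9 for secretory genes. For the wing pattern list the wing calls were 165 and 103 under these centrings, within 1.5 times of 125. Genes are not independent replicates and neighbouring genes share chromatin, so these shares are descriptions. Some genes, such as hth, rn, Diap1, Scr, eyg and br, stand in more than 1 list, and their regions are counted in each.

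Genes of gland function were the counterpart, in fewer and smaller regions. Of 22 glue and gland secreted genes only 4 were nearest to a region. The authors' deposited table called 5 of their 8 regions higher in gland (62.5%, against 12.7% of all regions) and 0 higher in wing. Sgs4, which encodes a glue protein and is one of the classic ecdysone-controlled genes, had 3 of 5 called in the authors' deposited table. The closest of these to Sgs4, 356 bp from a gene end at X 3249667 to 3249800, had implied levels of 25.5 in gland, 5.44 in WT wing, 7.56 in leg and 7.90 in EcR-RNAi wing. Its log2 fold was -2.23 (SE 0.50, adjusted p = 0.000188, DESeq2) in the authors' deposited table, so the call rests on a low count. Regions at X 3252666 to 3252945 and X 3261729 to 3262093 lay in the host gene dnc, the second 10871 bp from a gene end. They reached 95.5 and 100 in gland against 19.9 and 18.7 in wing. Per the authors' deposited table, both Sgs4 regions without a call had larger mean counts than the 3 called ones. The one at X 3255822 to 3256318, with a mean count of 246.3, leaned toward wing but stayed under the fold threshold. Its log2 fold there was 0.93 (SE 0.17, adjusted p = 1.89e-07, DESeq2). The other, at X 3255320 to 3255691, had -0.84 (SE 0.23). The glue gene Sgs1 (-1.79, SE 0.43) and the new glue gene ng4 (-1.89, SE 0.39) had 1 region each, both called, while the only Sgs3 region was not (0.34, SE 0.24) in the authors' deposited table.

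Regulators of the gland were split. The authors' deposited table called 14 of 52 regions of this list higher in gland (26.9%, against 12.7% of all regions) and 8 higher in wing. The corepressor gene nvy had 5 of its 10 regions higher in gland and 0 higher in wing per the authors' deposited table. At 2R 24285574 to 24286279, inside nvy, the implied levels were 204 in gland, 49.1 in WT wing, 43.3 in leg and 46.6 in EcR-RNAi wing. The 3 disc groups thus lay together, and the log2 fold was -2.06 (SE 0.22, adjusted p = 1.15e-18, DESeq2) in the authors' deposited table. CrebA, which raises secretory capacity, had regions of both kinds. Outside the gene at 3L 15533663 to 15534871 CrebA had 662 in wing and 259 in gland, and inside it at 3L 15538347 to 15538564 it had 10.4 and 67.3 as implied levels. Their log2 folds were 1.35 (SE 0.15) and -2.69 (SE 0.39) in the authors' deposited table. The gland selector fkh had 2 of 4 regions higher in gland, at -1.68 (SE 0.33) and -1.26 (SE 0.31), and the region 119 bp from its end did not pass (-0.22, SE 0.18) in the authors' deposited table. The trithorax group gene tna went the other way, with 3 of 4 regions higher in wing per the authors' deposited table.

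Enzymes and carriers of the secretory route had calls in favour of gland or none. Of 23 regions at the Pgant genes, whose enzymes start the O-glycosylation of mucins, 8 (34.8%) were higher in gland and 0 higher in wing per the authors' deposited table. They included Pgant4 (-1.92, SE 0.31), Pgant6 (-1.96, SE 0.40) and Pgant5 (-1.45, SE 0.18) in the authors' deposited table. At Pgant5 the implied levels were 395 in gland, 145 in WT wing, 114 in leg and 147 in EcR-RNAi wing. Of 45 regions at general secretory genes 9 were higher in gland (20%, against 12.7% of all regions) and 0 higher in wing, among them Ero1L (-1.95, SE 0.36), which forms disulphide bonds, and the COPII coat gene Sec31 (-1.39, SE 0.20) in the authors' deposited table. No Sec61 subunit had a call in the authors' deposited table. Housekeeping genes showed a share of 17.2% (5 of 29) higher in gland and 0 higher in wing, with a median log2 fold of -0.43, in the authors' deposited table. The secretory share of 20% therefore lies near that of housekeeping genes, and whether the lists differ was not tested.

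Over all genes, the smallest adjusted p-values in favour of gland, among regions with counts at or above the lower quartile and within 10 kb of a gene, belonged to Mkp3, TpnC41C and Cyp28d2 in the authors' deposited table. Mkp3, a phosphatase that limits ERK signalling, had a region at 3L 19073196 to 19073820 with implied levels of 245 in gland, 40.8 in WT wing, 41.1 in leg and 49.7 in EcR-RNAi wing. Its log2 fold was -2.59 (SE 0.24, adjusted p = 8.9e-24, DESeq2) in the authors' deposited table. Of the 8 Mkp3 regions 3 were called higher in gland and 3 higher in wing per the authors' deposited table. The troponin C gene TpnC41C had 6 of 6 regions higher in gland, with log2 folds from -2.44 to -3.56 in the authors' deposited table. These lie 9810 to 15204 bp from its end, and at 2R 5051997 to 5052424 the implied levels were 193 in gland, 16.3 in WT wing, 10.3 in leg and 13.7 in EcR-RNAi wing. Further genes in this group were nvy, the clock gene cwo (-2.52, SE 0.29) and a region nearest to usp, the partner of EcR, that lies inside Actn (-1.39, SE 0.16) in the authors' deposited table.

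Some of the 12 leading gland regions had EcR-RNAi wing levels close to those of gland. At CHKov1, 3R 25328545 to 25329163, the implied levels were 147 in gland and 176 in EcR-RNAi wing against 19.2 in WT wing and 16.5 in leg. At mam, a Notch coactivator gene, they were 353 and 344 against 113 and 86.0. Among all 1647 regions higher in gland 47 were also higher in EcR-RNAi than in WT wing in the authors' deposited tables, where the share over all tested regions was 0.789%. Among the 2751 higher in wing 4 were higher in EcR-RNAi wing and 77 higher in WT wing, where the share over all tested regions was 1.24%, in the authors' deposited tables. These comparisons share the WT wing libraries. Both the gland and the EcR-RNAi libraries may come from stocks other than that of WT wing, and the part of stock in these calls was not tested.

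The genes with most gland calls were CG7546 (8 of 11), grk, the nearest end to regions in Akap200 (7 of 8), TpnC41C (6 of 6) and CG14811, near prage (6 of 8), in the authors' deposited table. The gene hng3 had 6 of 25, beside 5 higher in wing, and Tim17b1, nvy and gce, which encodes a juvenile hormone receptor, had 5 each in the authors' deposited table. The gce region at X 15302458 to 15302754 had implied levels of 87.3 in gland, 19.6 in WT wing, 20.2 in leg and 17.0 in EcR-RNAi wing, with a log2 fold of -2.15 (SE 0.32) in the authors' deposited table. The smallest adjusted p-values in favour of wing lay near CG32655, inside Ten-a, a teneurin gene, and near CG9411, in the authors' deposited table. Near CG32655, at X 12225588 to 12227200, the implied levels were 722 in WT wing, 756 in leg, 653 in EcR-RNAi wing and 42.5 in gland. The log2 fold there was 4.09 (SE 0.18, adjusted p = 3.54e-107, DESeq2) in the authors' deposited table. Also among the leading 12 were regions at the epithelial regulator grh (2.51, SE 0.15) and at zld, a pioneer factor of the early embryo (2.64, SE 0.16), in the authors' deposited table. The grh region reached 1123 in WT wing, 1274 in leg and 197 in gland as implied levels.

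Genes of the ecdysone response, the hormone that acts on both tissues at this stage, carried calls in both directions. The authors' deposited table called 46 of 200 regions of this list higher in wing (23%) and 24 higher in gland (12%), close to the 21.1% and 12.7% of all regions. Single genes within the list leaned one way. Blimp-1, an ecdysone-inducible repressor, had 8 of 8 regions higher in wing, EcR itself 6 of 8 and ImpE2, an inducible gene of imaginal discs, 3 of 3 in the authors' deposited table. ImpE1 had 3 of 7, and its region 166 bp from the gene end had implied levels of 450 in WT wing, 513 in leg, 273 in EcR-RNAi wing and 100 in gland. Eip75B, a nuclear receptor gene induced early by the hormone, had 1 region higher in wing and 5 higher in gland of 20 per the authors' deposited table. That lean depended on the naming. With regions named by the gene that holds them, Eip75B had 5 higher in wing and 8 higher in gland of 39. For E23, an ABC transporter gene, the counts were 1 and 3 of 9 in the authors' deposited table.

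At the early genes br and Eip74EF the regions of either tissue lay in separate stretches or alternated. Broad (br), a zinc finger factor of metamorphosis, had 7 of 28 regions higher in wing and 3 higher in gland per the authors' deposited table. Of the 7 higher in wing 6 lay between X 1551443 and 1575452, inside the neighbouring gene span Mur2B, and 1 inside br. The first of them in fold, at X 1573857 to 1575452 and 478 bp from the br end, had implied levels of 856 in WT wing, 955 in leg, 627 in EcR-RNAi wing and 172 in gland. The 3 br regions higher in gland lay together inside the gene, between X 1590880 and 1597782, and their implied levels in gland were 74.8, 72.7 and 106, against 30.4, 33.2 and 19.9 in wing. Between both stretches stood 2 br regions with log2 folds of 0.65 (SE 0.18) and 0.49 (SE 0.14) in the authors' deposited table. The br locus thus held neighbouring stretches with opposite calls.

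At Eip74EF, an ETS factor gene, 4 regions were higher in wing and 5 higher in gland of 28 per the authors' deposited table, and they alternated. Those higher in wing were strong sites, with implied levels in wing of 541 to 611, and 228 to 261 in gland. Those higher in gland were weak, with 42.1 to 93.5 in gland and 10.8 to 41.6 in wing. The largest of these folds, at 3L 17588591 to 17588860, was -2.21 (SE 0.33), and the Eip74EF region higher in wing nearest to it, at 3L 17590396 to 17591291, had 1.23 (SE 0.17) in the authors' deposited table. Most Eip74EF regions, 19 of 28, did not pass in either direction in the authors' deposited table.

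**Figure D3:**
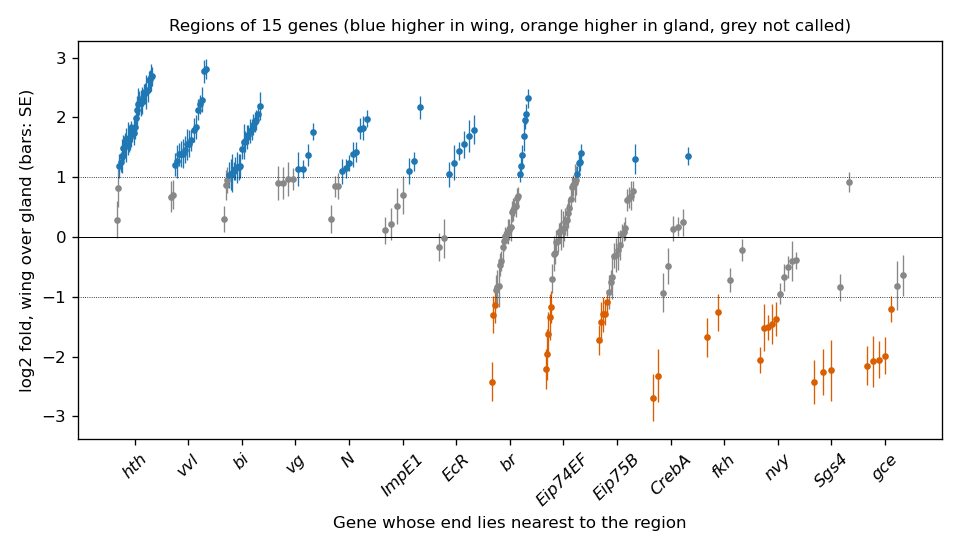
Log2 fold of wing over gland for each region of 15 genes, ordered within a gene by fold; points are regions, bars are the authors' SE, colours give the call, and dotted lines mark log2 folds of 1 and -1. All called regions of hth, vvl, bi, vg, N, ImpE1 and EcR lie above 1, those of fkh, nvy, Sgs4 and gce below -1, and br, Eip74EF, Eip75B and CrebA have both.

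In the plot of regions by gene, bars of low-count gland regions are wider than those of wing regions. It also shows that genes with both kinds of call span the whole range from one to the other, with most regions between the dotted lines. Over all genes, 5832 were the nearest gene of at least 1 region, of which 1113 had calls toward wing only, 1133 toward gland only and 136 toward both in the authors' deposited table. At least 2 calls in each direction were found at 21 genes in the authors' deposited table.

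Where the regions lie differed between the tissues. Of all calls toward wing 38.8% lay between genes and over 500 bp from a gene end, against 8.74% of all calls toward gland in the authors' deposited table. Inside genes, at over 500 bp from an end, lay 44.9% and 57% of them in the authors' deposited table. Of 2448 regions between genes and over 500 bp from a gene end, 43.6% were higher in wing and 5.88% higher in gland per the authors' deposited table. Inside genes, over 500 bp from an end, these shares were 21% and 16% of 5874 regions in the authors' deposited table. Within 500 bp of a gene end, where promoters lie, they were 9.58% and 12.1% of 4686 regions, with a median log2 fold of -0.36, in the authors' deposited table. Toward wing the share grew with distance in each step, from 16.6% at 0.5 to 2 kb to 34.8% at 10 to 20 kb and 45.3% at 20 to 50 kb in the authors' deposited table. For gland the share was highest at 0.5 to 2 kb, 17.4%, and 7.58% at 20 to 50 kb in the authors' deposited table. Gene strand and exons were not used here, so starts and ends of genes are pooled.

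**Figure D4:**
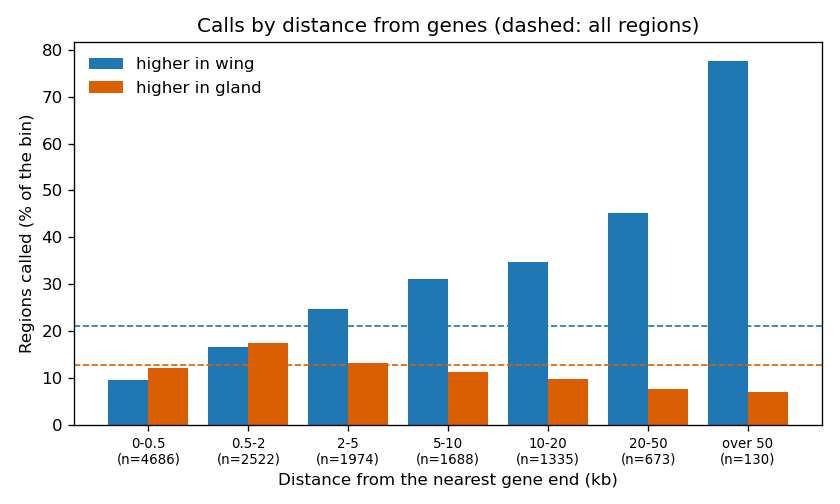
Share of regions called higher in wing (blue) and higher in gland (orange) by distance from the region centre to the nearest gene end in kb, in percent of the regions in each bin, with the number of regions under each bin; dashed lines mark the shares over all regions. Wing shares climb from 9.58% within 0.5 kb to 77.7% beyond 50 kb, and gland shares are highest, 17.4%, at 0.5 to 2 kb.

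In the bars by distance the wing share is under its overall value within 2 kb and above it from there on. The gland share is above its overall value from 0.5 to 5 kb and below it in the other bins. The last bin holds 130 regions, and 77.7% of them were higher in wing per the authors' deposited table. Of these, 43 lay on X, 28 on 3R and 14 on Y. On X between 23235055 and 23532620, 126814 to 424042 bp from the nearest gene end (ATbp), 40 of 40 regions were higher in wing, with median implied levels of 90.8 in wing and 4.33 in gland. Near Myo81F on 3R, 61260 to 556380 bp away, 16 of 16 were, with 92.6 and 5.19. On the Y, although all libraries are labelled female, 14 of 14 were, with medians of 81.5 and 4.65. Among the main chromosome arms the shares were alike, from 19.2% on X to 23.1% on 3L for wing and from 10.3% on X to 15.3% on 3L for gland in the authors' deposited table.

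Calls of one direction also lay side by side. Regions called higher in wing without any other region between them formed 1330 runs, of which 89 held at least 5 regions, and those higher in gland formed 1179 runs, of which 13 did, in the authors' deposited table. Near genes the longest wing run, 35 regions, spanned 2L 15363206 to 15747092, where the Snail family genes wor and sna and the cell cycle gene CycE lie. Its median implied levels were 158 in wing and 42.2 in gland. The next, of 30 regions at X 2973549 to 3151678, covered rst, kirre and N, with medians of 211 and 53.5. Others covered tsh and tio (23 regions at 2L 21796279 to 22024893), hth (21 regions at 3R 10528358 to 10644539), jing (19 regions at 2R 6520743 to 6575467) and abd-A with Abd-B (16 regions at 3R 16782399 to 16948921). The genes tsh and tio encode related zinc finger factors of the proximal appendage, and jing encodes a regulator of tracheal and wing cells. Along the run at abd-A and Abd-B no fold was under 1.46 and the median was 2.52 in the authors' deposited table.

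In gland the longest run, of 12 regions at 2R 4658129 to 5126798, held the TpnC41C regions and ended at gus, with median implied levels of 202 in gland and 43.6 in wing. The second, of 10 regions within 24087 bp at 3L 21492809 to 21516895, covered Hr78, a nuclear receptor gene, and Cdk12, with 78.3 and 28.7. A run of 7 regions at 2R 16659045 to 16689797 covered Picot and Pgant9, with 66.3 and 17.4. Single calls were more common, since 880 of the 1179 gland runs and 782 of the 1330 wing runs held 1 region each in the authors' deposited table.

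The leading stretches were ranked in a further way, by the median fold of 8 adjacent regions within 50 kb of a gene. The first stretch toward wing, X 12018790 to 12240489 beside Ten-a, had a median log2 fold of 3.26, with 5 of 8 higher in wing and the other 3, down to -0.69, not called, in the authors' deposited table. At the abd-A stretch, 3R 16798471 to 16886807, all 8 regions were higher in wing, with a median log2 fold of 2.97 and lowest of 1.46, in the authors' deposited table. Around CadN, 2L 17500872 to 17782448, 7 of 8 were higher in wing, with a median of 2.71, and around beat-IIIc, 2L 16886436 to 17268654, 5 of 8 were, with 1 higher in gland at -2.20, in the authors' deposited table. Copy number in the gland was not measured at these stretches either. In favour of gland the first stretch, 3L 29656 to 72521 near CG43149, had a median of -2.57, with 5 regions higher in gland and 2 higher in wing per the authors' deposited table. The 2 CG43149 regions of largest fold there were also called higher in EcR-RNAi than in WT wing by the authors' deposited tables. No peak of the wing or gland list overlapped them. The TpnC41C stretch, 2R 4658129 to 5055831, had 8 of 8 called with a median of -2.56 in the authors' deposited table.

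The merged peak lists, which need no comparison model, showed a like contrast in distance, but they are no second test. They come from the same groups, and the regions of the table were built from peaks. Each list is merged over the libraries of a group, per the labels, so peak counts have no replicate check, and the fold enrichment of a peak is the authors' own and ranks peaks within its list only. Of the 29283 wing peaks 23.2% were overlapped by at least 1 bp of a gland peak, and of the 16840 gland peaks 44.7% by a wing peak. With each list cut into 10 equal parts by fold enrichment, these shares were 50.8% and 80.5% in the highest part and 9.05% and 21.7% in the lowest. Shared peaks lay near gene ends more often than unshared ones in both lists, 57.8% against 17.5% for wing and 56.8% against 43.2% for gland. The highest gland peaks of all were unshared, since no shared gland peak exceeded a fold enrichment of 12.5 and unshared ones reached 30.5.

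**Figure D5:**
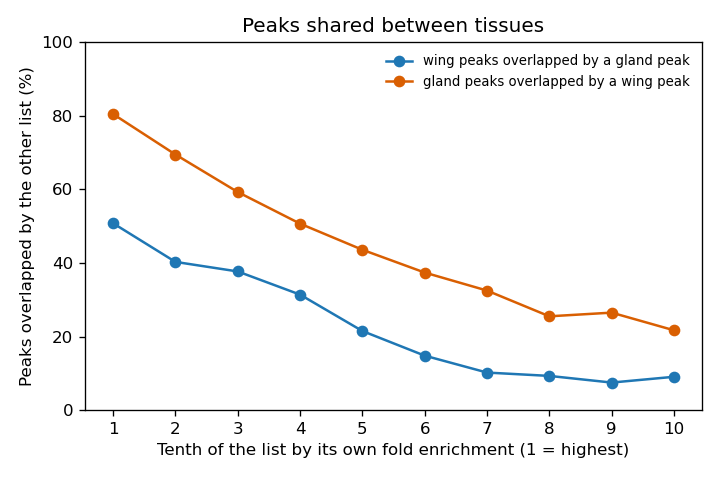
Share of peaks overlapped by at least 1 bp of a peak of the other list, in percent, for 10 equal parts of the wing (blue) and gland (orange) merged peak list ranked by its own fold enrichment, 1 being the highest. Sharing falls from 80.5% to 21.7% in the gland list and from 50.8% to 9.05% in the wing list.

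The curves of shared peaks fall from the first part to the last in both lists, with the wing curve under the gland curve in all 10. The wing list is the longer one, and its length alone raises the share of gland peaks it can overlap. Against the table, 5528 regions were overlapped by a wing peak only, 1483 by a gland peak only, 5476 by both and 521 by neither. Of those with a gland peak only, 80.8% were called higher in gland, and of those with a wing peak only, 44.1% were called higher in wing per the authors' deposited table. The regions were themselves built from peaks, so this is a description and not a second test. The peak lists reach further than the table, which covers 44.2% of wing peaks and 54.5% of gland peaks.

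At most of the wing marker genes the lists differed sharply, and at the gland markers less uniformly. Wing peaks nearest to bi numbered 45 and gland peaks 3, and the counts were 18 and 1 for vg, 18 and 1 for salm, which patterns the central wing, 15 and 1 for nub and 13 and 1 for ap. Doc1, Doc2 and Doc3 together had wing peaks, 10, 7 and 5, and no gland peak. All the gland peaks at bi, vg, salm, nub and ap overlapped a wing peak. Conversely Sgs1 had 4 gland peaks and no wing peak, Sgs7 had 2 gland peaks and no wing peak, and Sgs4 had 8 against 3. CrebA had 12 gland and 7 wing peaks. Other markers differed little, with 6 wing and 5 gland peaks at fkh, 4 and 3 at sd, 2 and 2 at Sgs3 and 1 and 1 at Sgs8. No peak of either list was nearest to Sgs5, ng1 or ng3. The gland factor sage, which was nearest to no region of the table, had 1 peak in each list, with a fold enrichment of 6.77 in gland and 2.64 in wing. Among lists of genes, the wing list held 36 peaks nearest to E(spl) and Bearded genes, of which 34 were unshared, and the gland list held 2, both shared. For cuticle and chitin genes the numbers were 146 and 15 peaks, and for glue and gland secreted genes 9 and 25.

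The highest unshared wing peaks lay near KP78a, CG43218, zld, mtSSB and CG13073, with fold enrichments of at least 11.4, and each overlapped a region called higher in wing. Among the highest unshared gland peaks near a gene were one near TpnC41C (15.1) and one inside the mucin gene Muc68Ca (13.5). The TpnC41C peak overlapped a region higher in gland with a log2 fold of -2.52 in the authors' deposited table, and the Muc68Ca peak overlapped no region.

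Markers of other cell types are read against the 21.1% of all regions higher in wing and the 12.7% higher in gland. For tracheal cells, which are attached to the wing disc, 35 of 48 regions (72.9%) were higher in wing and 1, at bnl, higher in gland per the authors' deposited table. The POU factor gene vvl had 16 of 18 and knrl 7 of 9 higher in wing per the authors' deposited table; both also act in wing vein patterning. The tracheal selector trh had 6 of 12, and its leading region had implied levels of 269 in WT wing, 106 in leg, 160 in EcR-RNAi wing and 62.7 in gland. For myoblasts 6 of 24 were higher in wing (25%, near the share of all regions) and 7 higher in gland (29.2%), with how (4 of 7) on the gland side and twi and zfh1 on the wing side in the authors' deposited table. For haemocytes the counts were 6 and 1 of 13, for fat body 4 and 1 of 8, for neurons 2 and 0 of 4 and for muscle 0 and 7 of 8 in the authors' deposited table. Only 7 of 12 haemocyte markers, 2 of 7 fat body markers (Adh and Lsp1gamma) and 3 of 7 neural markers were nearest to any region. Absent were Hml and NimC1 for haemocytes, Lsp2 and Fbp1 for fat body and nSyb and brp for neurons, among others. Of the muscle calls 6 belong to TpnC41C and 1 to TpnC73F, while Mhc, up and wupA were nearest to no called region. The part of such cells in the wing and gland libraries was not tested.

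Leg discs allow the same contrast with another disc, though with the same gland libraries. The authors' deposited tables called 618 of the 2751 wing regions not higher in leg than gland, and 223 of the 1647 gland regions not higher in gland than leg, where 22.6% of all regions were called toward leg and 13.3% toward gland. Regions higher in wing than in both leg and gland were fewer, since 171 of the 2751 were called higher in wing than leg, against 2.04% of all tested regions, per the authors' deposited tables. Another 25 were called higher in leg than wing, against 2.21% of all tested regions, per the authors' deposited tables. The vg region at 2R 12888320 to 12889878 is of this first kind in its levels, with leg at 158 and gland at 156, while in the regions of bi, Ser and E(spl)mbeta-HLH described above the implied leg levels exceeded those of wing.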

How the data were processed

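FAIRE-seq was measured in 8 libraries in 4 groups of 2. The submitters' processing notes name build dm6, DESeq2 without a version, MACS2 2.1.2, R 3.5.2, bedtools 2.26, Picard 2.2.4, SAMtools 1.9 and Bowtie2 2.3.4.1; their roles and settings are not stated there. The authors deposited 4 comparison tables over 1 set of regions, with a mean normalized count (a signal scaled by the authors) over all libraries, a log2 fold change with SE, a test statistic (a score), and p-values before and after adjustment. The authors deposited also a merged peak list per group with, per peak, a score, a fold enrichment (a ratio), and −log10 p-values and q-values. No value per library is given, so nothing was refitted and the depth per library is unknown. Precision is that of the SE, but fold over SE departed from the test statistic at 145 called regions.

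Calls required DESeq2's adjusted p below 0.05 and a log2 fold of 1 or more in size, which matched the authors' category column at all regions. A region was named by the nearest gene end in a RefSeq gene table of the dm6 assembly (13946 genes, without strand or exons); a gene span holding the centre is given as "inside". Coordinates are as deposited. The level of a group was implied from the mean normalized count and the folds. Folds of the 3 tables added up within 1e-06 at 13002 regions. For the other 6, all called higher in gland, no single level is printed, but the class medians and the plot of implied levels include them. Fold over SE differed by more than 5% from the statistic at 145 called regions, so calls follow the adjusted p. Gene lists are descriptions without tests. The members and lists were chosen with earlier results of these data known. Genes named are, by rule, the 12 of smallest adjusted p in each direction and the 8 with most calls. Also named are up to 4 genes of largest fold per list, the marker genes and the 3 largest folds. The rule further takes the 5 genes with most calls in both directions and the genes of the 5 highest unshared peaks. Other list genes are given by counts. The leading stretches and the regions inside br, Eip74EF and gce were chosen after their values were seen. So was the Muc68Ca peak, which is tied in fold enrichment with the last of the 5 gland peaks. A planned count of promoter motifs was not made, because no sequence was used. The recalculation of calls under other centrings and the overlap count were tested on simulated data. Scripts ran in Python 3.11.15 with pandas 2.3.3 and numpy 2.4.6.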

Additional observations from a re-analysis of the deposited data

How the results depend on the processing

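The excess of regions higher in wing over those higher in gland depended on where the folds are centred. As deposited there were 2751 and 1647 (62.6% of calls toward wing). Centred on the median of all regions (0.18) there were 2147 and 2250 (48.8%), and centred on the median of regions near gene ends (-0.36) 4367 and 915 (82.7%). Without a fold threshold there were 5273 and 3660, and with a log2 fold of 2 there were 443 and 256. With only regions at or above the lower quartile of the count (70.8) there were 2506 and 412, so 85.9% toward wing, since most gland calls lie under it. That count is a mean over all 8 libraries, of which 2 are gland, so the cut itself weighs against regions open in gland alone. With an adjusted p of 0.01 there were 2749 and 1617, without the Y and far-shifted bins 2670 and 1645, and without regions higher in EcR-RNAi wing, an alternative chosen after seeing the data, 2747 and 1600. Near gene ends, without a fold threshold, 1002 were higher in wing and 1964 in gland. With only the upper 50% of each peak list by fold enrichment 1673 regions had neither peak, and 4066 wing (27.7%) and 4257 gland peaks (50.3%) were shared; where at least 50% of both peaks must overlap, 2727 were (9.31% and 16.2%). Of 64 list counts 23 moved by over 1.5 times with folds centred on gene ends, 8 centred on all regions, 8 when named by the gene that holds them, 19 within 10 kb and 1 without regions higher in EcR-RNAi wing. Of 215 named regions 13 and 17 lost their call under the 2 centrings and none changed sign. No paired analysis was possible because the tables hold no value per library, and leaving out single libraries could not be run for the same reason. Low mean counts limit the gland side most.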

Other observations

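The peak lists and the table differ over a stretch of X far from genes. Between X 23235055 and 23532620 the table holds 40 regions, all called toward wing in the authors' deposited table, and 39 of the 102 wing peaks there overlap one. The gland list holds 42 peaks in the same stretch, and none overlaps a region of the table or a wing peak. They include 6 of the 10 gland peaks of highest fold enrichment, up to 30.5, while the highest wing peak there has 6.96. The gland signal of these peaks is thus not seen in the table's regions, and no wing value is given at them.

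The region columns of the table that mark an overlap with each group's peaks do not always follow the deposited lists. All 7015 regions marked for wing have a wing peak, but 3989 unmarked ones do too, and the marked ones begin at a −log10 q-value of 14.62 in the authors' deposited peak list. Of 6586 regions marked for gland 678 have no peak in the deposited gland list, and 1051 unmarked ones have one.

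The largest folds in favour of gland lay near mdu (-4.88, SE 0.41) and near CG43149 (-4.87, SE 0.40, and -4.34, SE 0.41) in the authors' deposited table. All 3 were also called higher in EcR-RNAi wing than in WT wing in the authors' deposited tables. At these regions the folds of the wing, leg and gland comparisons did not add up, so no level is printed. No wing or gland peak overlapped the regions near CG43149. The 21 genes with at least 2 calls in each direction included hng3 (5 higher in wing and 6 in gland of 25), CG10283 (5 and 2 of 10) and CG32192 (4 and 3 of 19) in the authors' deposited table. The largest folds in favour of wing lay near Myo81F (5.79, SE 0.38), ATbp (5.75, SE 0.36) and CG40228 (5.49, SE 0.32) in the authors' deposited table. Their adjusted p-values there (DESeq2) were 2.92e-14, 8.26e-26 and 4.07e-32, larger than fold over SE alone would give.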
